A study of Mus musculus with 2148 samples.

Results

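The 8 interferon response genes Irf7, Isg15, Ifit1, Ifit3, Oasl2, Mx1, Rsad2 and Usp18 were followed in single thymic epithelial cells (TECs) of the mouse. They were taken by gene symbol from the count table, 8 of the 48437 genes listed, and all 8 passed the filter on low counts in every test. The libraries were made by RamDA-seq, which reads whole transcripts of all RNA classes from 1 cell. All mice were C57BL/6. EpCAM+ cells without CD45 had been sorted into cortical TEC (cTEC, which carry Ly51) and medullary TEC (without Ly51) with a high or a low level of MHC class II, named mTEChi and mTEClo.

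The 8 groups were adult wild-type (WT) mTEChi, mTEClo and cTEC, adult Aire-knockout (Aire-KO) mTEChi and mTEClo, and newborn WT mTEChi, mTEClo and cTEC. Counts were summed over the cells of a group that carried the same age and sex labels, which gave 13 pools. Adult WT mTEChi formed 4 pools, from 4-week males, 5-week males (12 cells), 6-week males (82 cells) and 4-week females (82 cells). Adult WT mTEClo formed 3 pools, labelled 8-week male, 5-week male (74 cells) and 4-week male (66 cells). The other groups were 1 pool each: both Aire-KO sorts of 5-week males, adult cTEC of 6-week males (77 cells), and the newborn sorts of 1-day-old mice of unknown sex. The mice behind a pool were not numbered, so p-values of tests over pools measure the spread between pools only. Those of tests over batches measure the spread between batches only. The labels number 26 experimental batches of at most 91 cells. No Aire-KO cell shared a batch with a WT cell and no newborn cell shared a batch with an adult cell, so genotype or age and batch cannot be told apart. The adult sorts shared no batch with each other either, so sort and batch cannot be told apart in adult cells.

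Cells held 203010 to 1823784 reads on at least 8168 genes. Summed levels of 7 cTEC markers were 7408 and 7567 CPM (counts per 1000000 reads) in the cTEC pools and at most 3070.2 CPM in the others. Those of 7 mature mTEC markers were 6488 to 8832 CPM in adult WT mTEChi and 1451.8 to 3549.9 CPM in mTEClo. Xist, which is read from the inactive X chromosome of female cells, had a read in 94.9% of cells of the mTEClo pool labelled 8-week male, against 100% in the female pool and at most 42.9% in the other pools labelled male. That pool goes against its label, and results that rest on it are given with and without it. The 10 myeloid and dendritic markers summed to 861.3 to 1324.7 CPM in adult WT mTEChi and 101.1 to 517.4 CPM in mTEClo. Of the 10, 7 were above 10 CPM in mTEChi and 3 in mTEClo. Most of the level in mTEChi was Laptm5 (513.4 to 733.1 CPM), followed by Lyz2 (179.9 to 314.1 CPM, against 10.8 to 59.3 in mTEClo) and Csf1r (52.3 to 181.6 CPM, against 1.75 to 9.99), whereas Siglech, which marks plasmacytoid dendritic cells, was read at 0 to 1.32 CPM in mTEChi and at 0 in mTEClo.

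Interferons are secreted proteins that cells make on sensing foreign or misplaced nucleic acids. Type I interferons (alpha and beta) and type III interferons (lambda) bind their receptors and activate Janus kinases. The signal reaches the nucleus through a complex that holds Stat2 and Irf9 and binds the interferon-stimulated response element in the promoters of target genes. Many cells keep a low level of these target genes without infection. In the thymus, mTEChi mature from mTEClo, and Aire, which lets mTEChi transcribe genes of other tissues, is made mainly in the mature cells.

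Of the 8 genes, Irf7 encodes the transcription factor that amplifies interferon alpha production. Ifit1 and Ifit3 bind foreign RNA, Oasl2 is related to the oligoadenylate synthetases that act upstream of RNase L, Mx1 is a dynamin-like GTPase that blocks influenza virus, and Rsad2 is viperin, a radical SAM enzyme that interferes with viral replication. The Mx1 gene of C57BL/6 mice does not make a working protein, but its transcript can still be counted. Isg15 is a ubiquitin-like protein joined to other proteins, and Usp18 removes it and dampens signalling at the type I interferon receptor.

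The promoters of the genes were read for the response element to show which of them carry it close to the start. RefSeq (GRCm38.p6) held a promoter for 6 of the 8 genes, all but Mx1 and Usp18. In the 250 bases before the start, the core letters GAAANNGAAA, or TTTCNNTTTC for the opposite strand, were present in 4 of the 6, those of Isg15, Ifit1, Ifit3 and Rsad2. Of all 32851 RefSeq promoters of that length, 2.98% held the motif and 59 (0.180%) held it at least 2 times. Among promoters of other type I interferon targets, 17 of 47 (36.2%) held it. The windows of Irf7 and Oasl2 had no match to these letters. The stretches that carry the motif are printed 5′ to 3′ along the gene, from 40 bases before the first match to the RefSeq start, with matches in capitals.
Isg15, chr4:156200819-156200936, minus strand: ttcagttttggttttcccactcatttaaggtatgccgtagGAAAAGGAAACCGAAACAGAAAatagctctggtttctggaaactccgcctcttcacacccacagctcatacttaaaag
Ifit1, chr19:34640745-34640888, plus strand: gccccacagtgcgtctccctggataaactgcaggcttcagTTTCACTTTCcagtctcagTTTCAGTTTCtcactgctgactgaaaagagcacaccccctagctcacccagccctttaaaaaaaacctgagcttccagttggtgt
Ifit3, chr19:34583333-34583528, plus strand: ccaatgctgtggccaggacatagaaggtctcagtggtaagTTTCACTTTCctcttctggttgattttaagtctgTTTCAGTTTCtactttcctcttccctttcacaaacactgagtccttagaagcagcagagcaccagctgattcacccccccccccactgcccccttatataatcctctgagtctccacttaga
Rsad2, chr12:26456453-26456612, minus strand: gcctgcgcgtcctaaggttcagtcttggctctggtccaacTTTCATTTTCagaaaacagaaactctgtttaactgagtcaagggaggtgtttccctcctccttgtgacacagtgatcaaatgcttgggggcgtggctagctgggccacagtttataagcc
Isg15 had 3 overlapping matches, which began 78, 72 and 66 bases before its start. Ifit1 had 2 matches, at chr19:34640785-34640794 and chr19:34640804-34640813, and Ifit3 had 2, at chr19:34583373-34583382 and chr19:34583407-34583416. Rsad2 had 1 match, at chr12:26456563-26456572, and the matches of these 3 genes read on the strand opposite to the gene. Ifit1 (chr19:34640871-34650009) and Ifit3 (chr19:34583531-34588731) lie near each other on the same chromosome. Counting did not use strand, and 51.2% of the 50-base words of Ifit3 also occur in another gene, its copy Ifit3b, so counts of Ifit3 are uncertain. For Ifit1 the share was 7.13%, with Ifit1bl1 and Ifit1bl2.

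All 8 genes were read in every group, and their baseline levels spanned a wide range. Compared per kilobase of exon, the mean level over the 8 groups was highest for Oasl2 (87.5 CPM per kb), followed by Usp18 (58.8), Ifit1 (47.5), Isg15 (35.9), Irf7 (32.2), Ifit3 (17.2), Mx1 (15.3) and Rsad2 (8.33). Each gene overlapped its neighbours in this order when the range over groups was taken, such as 5.76 to 54.3 CPM per kb for Isg15 and 8.86 to 55.3 CPM per kb for Irf7. The levels that follow are in CPM of a pool, which compare 1 gene between groups and not genes with each other.

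Irf7 was the gene that separated the adult sorts most clearly. Its level in adult WT mTEChi was 78.3, 74.8, 50.3 and 69.3 CPM in the 4-week male, 5-week male, 6-week male and 4-week female pools. In adult WT mTEClo it was 217.4, 220.8 and 179.3 CPM in the pools labelled 8-week, 5-week and 4-week male. Every mTEClo pool lay above every mTEChi pool. Adult cTEC had 154.8 CPM, Aire-KO mTEChi 33.4, Aire-KO mTEClo 208.96, newborn mTEChi 83.2, newborn mTEClo 128.6 and newborn cTEC 88.6 CPM. WT and Aire-KO mTEClo were thus close to each other, and the Aire-KO mTEChi pool was the lowest of the 13 pools.

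Oasl2 and Isg15 had lower means in mTEChi than elsewhere, with adult mTEChi and mTEClo pools that overlapped. In the order of pools above, Oasl2 stood at 393.8, 400.98, 525.1 and 425.8 CPM in adult WT mTEChi and at 989.2, 473.5 and 405.4 CPM in mTEClo. Its level was 669.3 CPM in adult cTEC, 305.5 in Aire-KO mTEChi, 825.4 in Aire-KO mTEClo, and 353.3, 557.3 and 692.2 CPM in newborn mTEChi, mTEClo and cTEC. Of the adult WT mTEClo pools, the one labelled 8-week male was the 1 that lay above the mTEChi range. Isg15 stood at 13.7, 21.2, 11.6 and 22.8 CPM in adult WT mTEChi and at 39.2, 23.4 and 12.3 CPM in mTEClo. Its other values were 37.8 CPM in adult cTEC, 4.36 in Aire-KO mTEChi, 33.8 in Aire-KO mTEClo, and 19.6, 38.6 and 41.02 CPM in newborn mTEChi, mTEClo and cTEC. For both genes, as for Irf7, the Aire-KO mTEChi pool was the lowest of all.

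Ifit1 and Ifit3 differed in their patterns. Ifit1 stood at 141.3, 98.99, 139.8 and 152.8 CPM in adult WT mTEChi and at 188.3, 69.8 and 76.1 CPM in mTEClo. Elsewhere it was at 162.7 CPM in adult cTEC, 168.1 in Aire-KO mTEChi, 162.6 in Aire-KO mTEClo, and 97.6, 85.4 and 87.7 CPM in newborn mTEChi, mTEClo and cTEC. All adult WT mTEChi pools lay inside the range of the mTEClo pools. Ifit3 stood at 10.6, 0.626, 11.3 and 16.9 CPM in adult WT mTEChi and at 76.1, 23.7 and 15.2 CPM in mTEClo. In adult cTEC it reached 59.2 CPM, in Aire-KO mTEChi 4.21, in Aire-KO mTEClo 60.4, and in newborn mTEChi, mTEClo and cTEC 9.20, 29.99 and 28.4 CPM. All mTEChi pools, of either genotype and age, lay at or below 16.9 CPM, and the 5-week male pool of 12 cells was the lowest.

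Mx1, Usp18 and Rsad2 did not have lower means in adult WT mTEChi. Mx1 stood at 64.6, 154.2, 51.9 and 85.5 CPM in adult WT mTEChi and at 76.02, 27.4 and 29.3 CPM in mTEClo. Adult cTEC had 46.5 CPM, Aire-KO mTEChi 52.4, Aire-KO mTEClo 58.1, and newborn mTEChi, mTEClo and cTEC 98.8, 43.5 and 29.9 CPM. For Mx1 the mTEChi and mTEClo pools overlapped. Usp18 stood at 239.04, 198.99, 177.3 and 277.8 CPM in adult WT mTEChi and at 202.2, 134.6 and 158.8 CPM in mTEClo, which overlap as well. Its level was 171.4 CPM in adult cTEC, 234.8 in Aire-KO mTEChi, 169.6 in Aire-KO mTEClo, and 151.4, 101.9 and 94.96 CPM in newborn mTEChi, mTEClo and cTEC. The lowest Usp18 values were thus those of newborn cTEC and mTEClo. Rsad2 stood at 30.3, 51.4, 78.02 and 56.003 CPM in adult WT mTEChi and at 30.5, 68.3 and 38.4 CPM in mTEClo. Adult cTEC had 22.4 CPM of it, Aire-KO mTEChi 4.10, Aire-KO mTEClo 49.5, and newborn mTEChi, mTEClo and cTEC 38.5, 46.1 and 28.7 CPM. Its Aire-KO mTEChi pool was far below the other 12.

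**Figure D1:**
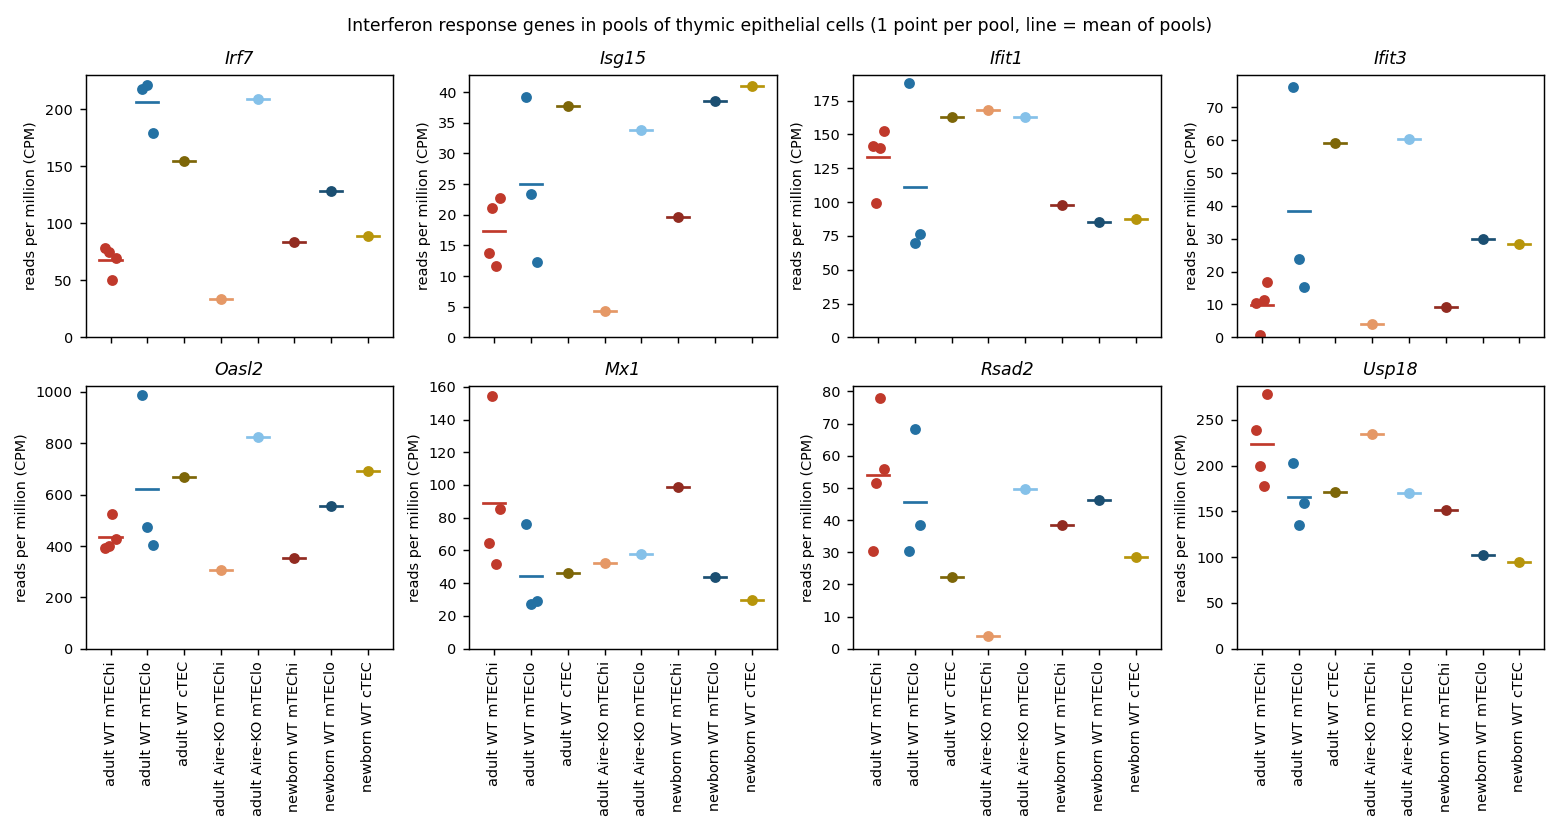
Level of each gene in CPM (y axis, from 0) in the 8 groups (x axis), with 1 point per pool and a line at the mean of the pools of a group. The adult WT mTEChi pools of Irf7 (50.3 to 78.3 CPM) all lie below the mTEClo pools (179.3 to 220.8 CPM), and Rsad2 stands at 4.10 CPM in Aire-KO mTEChi.

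In a summed pool, fewer cells with a transcript and less of it per cell cannot be told apart, so the share of cells with at least 1 read was taken after thinning every cell to 200000 reads, which kept all cells. Oasl2 was read in 94.4% to 100% of the cells of each group and Usp18 in 92.98% to 100%. The other genes were read in part of the cells. Ifit3 was read in 15.97% of adult WT mTEChi (exact binomial 95% interval 13.2 to 19.1%, for counting error only), against 27.4% before thinning. In adult WT mTEClo the share was 61.6% (56.4 to 66.7%), but by pool it was 86.6% in the pool labelled 8-week male and 24.3% and 21.2% in the others. The mTEChi pools ranged from 14.4% to 20.7%. Irf7 was read in 66.7% to 79.7% of cells of the adult WT mTEChi pools and in 90.9% to 99.1% of those of the mTEClo pools. Mx1 was read in 51.2% to 66.7% of cells of the mTEChi pools and in 65.4%, 22.97% and 18.2% of cells of the mTEClo pools.

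Rsad2 was read in 29.5% (25.9 to 33.3%) of adult WT mTEChi and in 10.7% (7.57 to 14.4%) of Aire-KO mTEChi, against 42.1% and 12.7% before thinning. Adult WT mTEClo had it in 51.3% of cells, Aire-KO mTEClo in 53.9% and newborn cTEC in 75.5%. Isg15 was read in 50% of adult WT mTEChi and 25.1% of Aire-KO mTEChi, against 70.3% and 78.6% of the corresponding mTEClo. By pool, Isg15 was read in 82.9% of the mTEClo cells labelled 8-week male and in 54.1% and 46.97% of the others, which overlap the mTEChi pools (48.9% to 66.7%). Newborn cTEC had the highest share of the 8 groups for Isg15 (92.1%), Ifit3 (84.9%), Mx1 (65.5%) and Rsad2 (75.5%), though its pool levels of Mx1 and Rsad2 were among the lower ones.

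**Figure D2:**
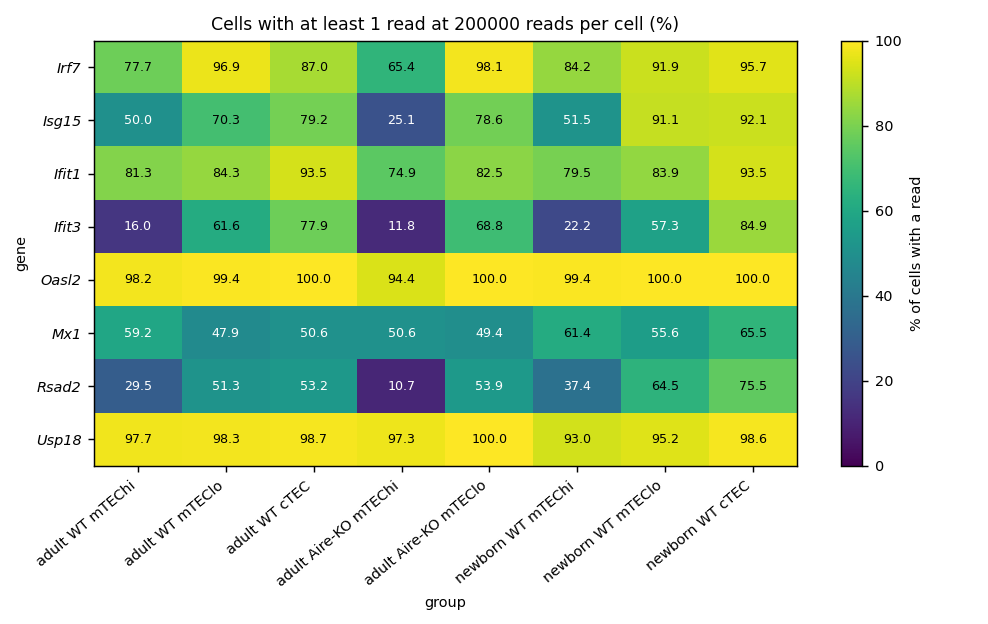
Share of cells (%, colour and number) with at least 1 read of each gene in each group, after thinning every cell to 200000 reads. Oasl2 and Usp18 are read in at least 92.98% of the cells of each group, whereas Ifit3 and Rsad2 are read in 11.8% and 10.7% of Aire-KO mTEChi.

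Counted together in thinned cells, an adult WT mTEChi cell held reads of 5.10 of the 8 genes on average (5 to 5.28 over pools) and an mTEClo cell of 6.10 (4.86 to 6.81 over pools). The lowest mean was 4.30, in Aire-KO mTEChi, and the highest 7.06, in newborn cTEC, where 47.5% of cells held reads of all 8. In adult WT mTEChi a few cells carried most reads of some genes. The 10% of cells with the highest CPM of a gene held 95.9% of the Ifit3, 93.3% of the Rsad2 and 66.03% of the Mx1 reads of that group. For Oasl2 and Usp18 such cells held 38.7% and 35.3% of the reads. In newborn cTEC the same measure was 30.7% for Ifit3 and 36.5% for Rsad2. One mTEChi cell held 3151 thinned reads of the 8 genes in all, against a median of 132.5 in its group.

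Averaged over groups, cells high in one of the genes tended to be high in others, though not in every group. The mean Spearman correlation over the 8 groups was highest for Ifit1 with Oasl2 (0.55), followed by Ifit3 with Oasl2 (0.53) and Isg15 with Ifit3 (0.51), and lowest for Mx1 with Rsad2 (0.21). In single groups it ranged from -0.13 to 0.54 for Oasl2 with Mx1 and from -0.12 to 0.50 for Ifit1 with Mx1. These values describe cells that share batches and mice. Of 19087 other genes, the 10 most like the summed level of the 8 over thinned cells were Rnf213 (mean correlation 0.60 over the 8 groups), Parp14 (0.58), Zbp1 (0.58), Xaf1 (0.57), Rtp4 (0.56), Ifi44 (0.56), Irgm1 (0.53), Irgm2 (0.51), Phf11d (0.51) and Trim30a (0.50). All but Rnf213 stand on one of the lists of interferon-pathway genes used here.

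Maturation was addressed by comparing adult WT mTEChi with mTEClo, the comparison with several pools on both sides. Irf7 was lower in mTEChi by 3.48-fold, with a log2 fold change of -1.80 ± 0.21 (SE) and an adjusted p of 0.00322 (edgeR quasi-likelihood test over 39971 genes with Benjamini-Hochberg adjustment). A gene was called at an adjusted p below 0.05 and a fold of at least 2, which held for 4.13% of all genes in the lower direction and 7.54% in the higher one. Irf7 was the 1 member called, and the 1 member whose mTEChi pools all lay below the mTEClo pools, as those of 9.85% of all genes did. With any 1 pool left out its log2 fold change ranged from -1.92 to -1.61 and it stayed called, with -1.68 without the pool labelled 8-week male. The call was lost when cells with immune markers were left out (-0.80 ± 0.59, adjusted p = 0.513 in edgeR) and with age as a block (-1.43 ± 0.26, adjusted p = 0.0702 in edgeR). The cells left out were cells with at least 5 reads of at least 3 thymocyte, myeloid or dendritic markers, 87.4% of adult WT mTEChi and 26.3% of mTEClo. They made up 83.3% to 91.5% of the cells of each adult WT mTEChi pool, so few cells remained. Calls on the gene lists described below fell in this setting too, such as from 9 to 0 higher among targets of interferon gamma. Whether the lost Irf7 call reflects those cells or the smaller number of cells was not tested. Every fit with age as a block held only the 4-week and 5-week male pools of both sorts, so it rests on fewer pools.

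None of the other 7 genes passed the test. Ifit3 had the estimate farthest from 0, -2.21 ± 0.90 on the log2 scale (adjusted p = 0.126 in edgeR), and -1.09 ± 0.88 without the pool labelled 8-week male. Isg15 (-0.77 ± 0.46) and Oasl2 (-0.75 ± 0.34) also had estimates below 0. Without that pool they were at -0.17 ± 0.42 and -0.13 ± 0.16. Mx1 was at +0.75 ± 0.52, Usp18 at +0.22 ± 0.25, Rsad2 at +0.07 ± 0.37 and Ifit1 at +0.01 ± 0.40. The median log2 fold change of the 8 genes was -0.37, beside +0.30 over all genes tested (+0.40 with RLE scaling).

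**Figure D3:**
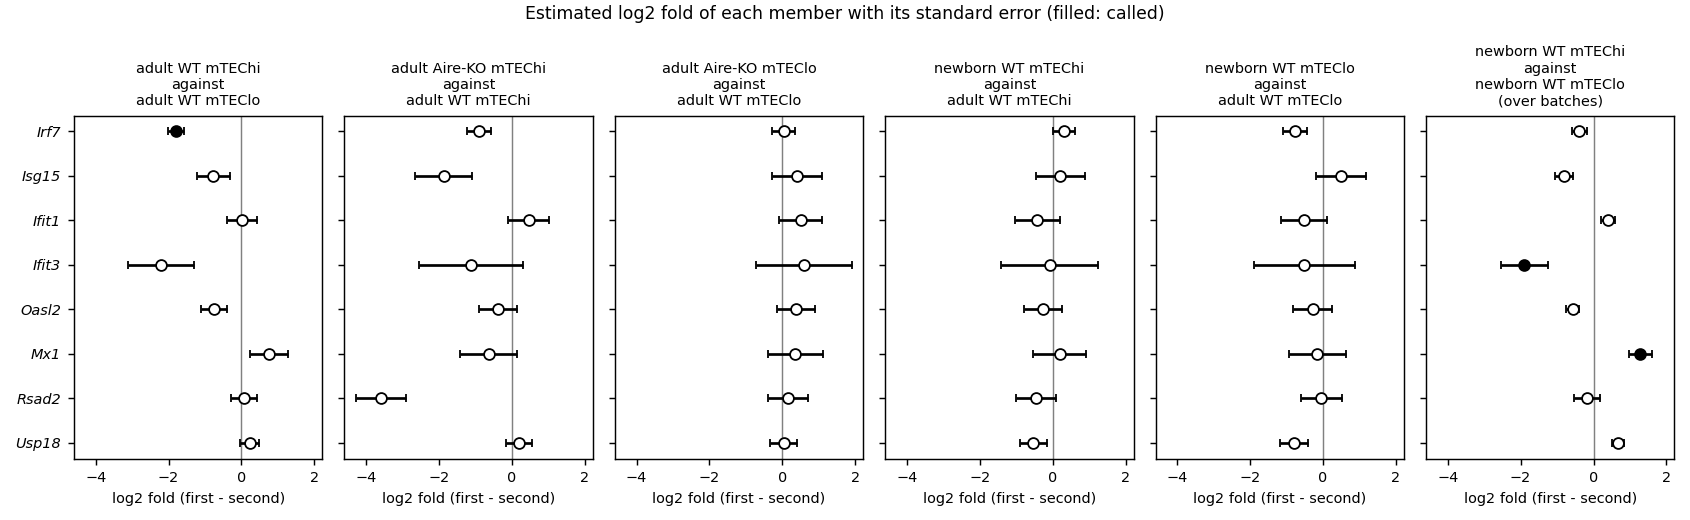
Log2 fold change (x axis) of each gene (y axis) in 6 comparisons, first group minus second; points are estimates, bars are 1 SE and filled points were called. Irf7 in adult mTEChi against mTEClo (-1.80), and Mx1 (+1.29) and Ifit3 (-1.90) in newborn mTEChi against mTEClo over batches, are the called values.

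The genes were also followed inside the sorts, with cells ranked by a marker. On each of 8 batches with at least 30 adult WT mTEChi cells, cells were ranked by their Aire level and divided into 3 sets of like size, whose Aire levels were 204.2, 1092.2 and 2272 CPM over all batches. Irf7 stood at 108.04, 58.7 and 52.2 CPM across them, and Oasl2 at 501.7, 470.8 and 275.9 CPM. The Oasl2 level was lower in the set highest in Aire than in the lowest on all 8 batches. Ifit1 (165.2 against 93.7 CPM) and Isg15 (18.2 against 10.9 CPM) were also lower in the highest set, as was Irf7, on 7 of 8 batches each. Mx1 went the other way, with 37.4, 73.8 and 81.8 CPM, and was higher on 7 of 8 batches. Thus 4 members were lower and 1 was higher on at least 7 of 8 batches, where 31.5% and 19.3% of 12169 genes were. Usp18 (202.3 and 235.5 CPM), Rsad2 (34.9 and 32.8 CPM) and Ifit3 (13.2 and 8.15 CPM) kept one direction on fewer batches. These values are descriptive, as the cells of a batch are not replicates. The paper also places mimetic cells, which resemble cells of peripheral tissues, in this sort. Mki67, a gene of cycling cells, stood at 83.1, 198.9 and 100.8 CPM across the 3 sets. The Aire level is therefore not an order of maturation alone.

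Among adult WT mTEClo, cells were ranked in the same way by Ccl21a, a chemokine of immature mTEC, on 5 batches. Isg15 was at 21.2 CPM in the lowest and 42.4 CPM in the highest set, Ifit3 at 37.3 and 72.4 CPM, and Mx1 at 41.4 and 81.4 CPM. Oasl2 (604.96 and 888.98 CPM), Ifit1 (108.3 and 164.95 CPM) and Usp18 (155.7 and 200.1 CPM) were at higher values in the highest set too. These 6 genes were higher in the highest set on at least 4 of 5 batches, as 27.1% of 11293 genes were. Irf7 (208.2 and 222.3 CPM) and Rsad2 (42.9 and 39.6 CPM) were not. Cells high in tuft markers, described below, were not left out of these sets, and their part in these values was not tested.

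The mTEClo sort also held cells with genes of tuft cells, the chemosensory cells of mucosal surfaces. Cells with at least 50 CPM of at least 3 of the 5 tuft markers Trpm5, Avil, Pou2f3, Dclk1 and Il25 made up 4.15%, 54.1% and 56.1% of the mTEClo pools labelled 8-week, 5-week and 4-week male, and 14.9% of Aire-KO mTEClo. The pools therefore differed in their makeup, and several members differed with it. In the 5-week pool, Mx1 was at 3.56 CPM in the 40 cells high in tuft markers and at 52.4 CPM in the other 34. In the 4-week pool it was at 0.696 CPM in 37 such cells and at 60.3 CPM in the other 29. Ifit3 was at 0.653 against 47.8 CPM and at 1.96 against 29.5 CPM in the same pools. These are the pools in which both genes were low as a whole.

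Isg15, Ifit1, Ifit3, Oasl2, Mx1 and Usp18 were lower in cells high in tuft markers in all 4 mTEClo pools, Aire-KO included, as 40.3% of 12356 genes were. Irf7 was not among them. It was higher in the cells high in tuft markers of the 3 WT pools, at 383.95, 284.6 and 254.5 CPM against 211.6, 154.3 and 97.6 CPM in the other cells, but not in Aire-KO mTEClo, at 193.7 against 212.1 CPM. Rsad2 was also higher in such cells of the 5-week pool (104.6 against 30.5 CPM), the 4-week pool (63.96 against 10.7 CPM) and Aire-KO mTEClo (117.5 against 35.4 CPM). In the pool labelled 8-week male, with 9 such cells, it was at 22.95 against 30.8 CPM, and in adult WT mTEChi at 8.97 CPM in 21 such cells against 41.4 CPM in the others. With all cells high in tuft markers left out, an alternative chosen after the data were seen, Irf7 was still called between mTEChi and mTEClo, with a log2 fold change of -1.38 ± 0.34 and an adjusted p of 0.0326 (edgeR quasi-likelihood test).

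The knockout was first checked on Aire itself. Aire stood at 1109.7, 1844.6, 1125.1 and 1789.7 CPM in the adult WT mTEChi pools and at 26.1 CPM in Aire-KO mTEChi, and at 26.1 to 39.5 CPM in WT mTEClo and 0.153 CPM in Aire-KO mTEClo. Both Aire-KO pools were thus low in Aire, as labelled. Even so the Aire difference in mTEChi, -5.69 ± 0.57 on the log2 scale, had an adjusted p of 0.239 in the edgeR quasi-likelihood test, which called 0 of 39971 genes (0%) with its 1 Aire-KO pool. In that test 4.37% of genes had an unadjusted p below 0.05, and DESeq2 called 0.130% of genes higher and 1.79% lower.

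Rsad2 showed the difference farthest from 0 between Aire-KO and WT mTEChi among the members. It stood at 4.10 CPM in the Aire-KO pool (exact Poisson interval 3.87 to 4.34, for counting error only) and at 30.3 to 78.02 CPM in the WT pools. The log2 fold change was -3.59 ± 0.69 with an unadjusted p of 0.000709 and an adjusted p of 0.925 in edgeR's quasi-likelihood fit, so it was not called. DESeq2 called it lower, with -3.60 and an adjusted p of 6.56e-06. Irf7 (-0.90 ± 0.33, unadjusted p = 0.0233) and Isg15 (-1.87 ± 0.78, unadjusted p = 0.0428) had the next smallest p-values in the edgeR fit, and neither passed after adjustment (adjusted p = 0.925 for both). Ifit3 was at -1.12 ± 1.42, Mx1 at -0.64 ± 0.78 and Oasl2 at -0.39 ± 0.52, while Ifit1 was at +0.46 ± 0.57 and Usp18 at +0.19 ± 0.36. The Aire-KO pool lay below all 4 WT pools for Irf7, Isg15, Oasl2 and Rsad2, as it did for 17.5% of all genes, and above them for Ifit1, as for 16.5% of genes. Without cells with immune markers, 87.9% of Aire-KO and 87.4% of adult WT mTEChi, the Rsad2 estimate turned to +0.62 ± 1.596. Few cells remained in that setting, and the SE was larger than the estimate.

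Batch by batch, Rsad2 ranged from 1.37 to 6.61 CPM on 4 Aire-KO batches and from 7.12 to 76.3 CPM on 9 WT batches, without overlap. Isg15 ranged from 2.09 to 7.30 CPM on Aire-KO and from 4.17 to 22.8 CPM on WT batches, which overlap, and Irf7 from 26.4 to 39.5 and from 39.8 to 105.4 CPM, which do not, though the nearest Irf7 values differ by little. All Aire-KO batches lay below all WT batches for 2.79% of all genes. Batch 1 was the WT batch nearest to the Aire-KO batches, with 7.12 CPM of Rsad2, 4.17 CPM of Isg15 and 39.8 CPM of Irf7 over 75 cells. With batches in place of pools as the units, edgeR called Rsad2 (-3.18 ± 0.55, adjusted p = 0.00103), Irf7 (-1.03 ± 0.24, adjusted p = 0.0108) and Isg15 (-1.62 ± 0.40, adjusted p = 0.0157) lower, as it called 4.44% of all genes. What a batch shares beside its number, and how many mice stand behind the 4 Aire-KO batches, was not given.

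**Figure D4:**
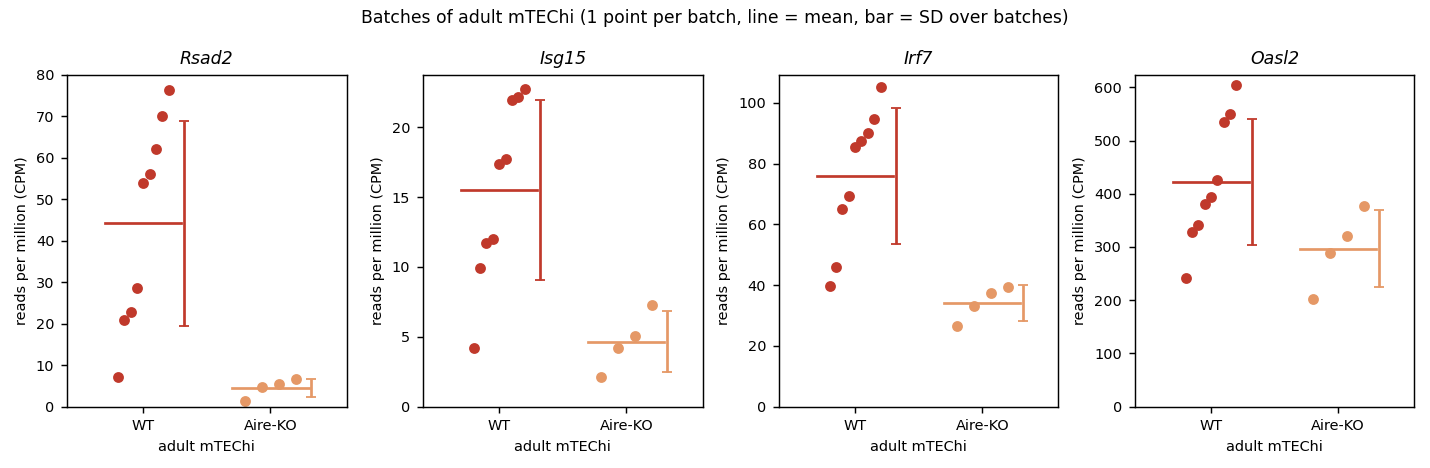
Level in CPM (y axis, from 0) of Rsad2, Isg15, Irf7 and Oasl2 on each batch of adult WT mTEChi (9 batches) and Aire-KO mTEChi (4 batches); lines are means and bars are 1 SD over batches. Aire-KO batches of Rsad2 (1.37 to 6.61 CPM) lie below all WT batches (7.12 to 76.3 CPM), whereas those of Oasl2 overlap.

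In mTEClo the estimates of the 8 genes lay close to each other for Aire-KO against WT, from +0.03 ± 0.32 for Irf7 to +0.60 ± 1.31 for Ifit3 on the log2 scale. The Aire-KO pool lay inside the range of the WT pools for every member, and outside it for 39.5% of all genes. The edgeR quasi-likelihood test called 0 genes (0%), with 3.55% at an unadjusted p below 0.05, and DESeq2 called 0.680%, none of them a member. The difference of the Aire-KO effect between mTEChi and mTEClo was tested in the same fit. For Rsad2 it was -3.75 ± 0.82 on the log2 scale, with an unadjusted p of 0.00158 and an adjusted p of 1.00 in edgeR, which called 0 genes (0%) and had 3.44% at an unadjusted p below 0.05. DESeq2 gave -3.69 with an adjusted p of 0.0141 for this difference and called 0.468% of genes.

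Age was addressed by comparing 1-day-old with adult WT cells. In mTEChi the log2 fold changes of the 8 genes ran from -0.53 ± 0.38 (Usp18) to +0.32 ± 0.30 (Irf7). The newborn pool lay below all adult pools for Ifit1, Oasl2 and Usp18, as it did for 12.3% of all genes, and above them for Irf7, as for 20.1% of genes. No gene was called by the edgeR quasi-likelihood test (0%), which gave 2.01% of genes at an unadjusted p below 0.05, while DESeq2 called 0.0876%, no member among them.

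Newborn mTEClo had less Irf7 than each adult mTEClo pool, 128.6 against 179.3 to 220.8 CPM, and less Usp18, 101.9 against 134.6 to 202.2 CPM. A newborn pool below all adult pools was seen for 19.1% of all genes. The log2 fold changes were -0.77 ± 0.33 for Irf7 (unadjusted p = 0.0478, adjusted p = 0.498 in edgeR) and -0.80 ± 0.39 for Usp18 (adjusted p = 0.549 in edgeR). Every other member lay inside the adult range, among them Isg15 with +0.50 ± 0.69 and Ifit3 with -0.51 ± 1.39. The edgeR quasi-likelihood test called 0 genes (0%) and had 9.93% at an unadjusted p below 0.05, and DESeq2 called 4.59%, none of them a member. Over batches, Usp18 was called (-1.04 ± 0.21, adjusted p = 0.000743 in edgeR), as 8.92% of genes were in that direction. The difference of the newborn effect between mTEChi and mTEClo was +1.09 ± 0.44 for Irf7, with an unadjusted p of 0.0378 and an adjusted p of 1.00 in edgeR. For this difference edgeR called 0 genes (0%), 3.81% had an unadjusted p below 0.05, and DESeq2 called 0.628%.

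The 3 newborn sorts shared 5 batches, so they were also compared over 15 batch sums with the batch as a block. The mice behind these batches were not numbered, so p-values of these comparisons measure the spread between batches and not between mice. Of the 8 members 2 were called between mTEChi and mTEClo (edgeR quasi-likelihood test over 23349 genes), where 31.9% of all genes were called in either direction. Mx1 was higher in mTEChi, at 127.9, 93.8, 61.99, 57.8 and 129.6 CPM against 21.3, 62.2, 35.2, 28.7 and 53.2 CPM on batches 16 to 20. The difference had the same direction on every batch and was +1.29 ± 0.31 on the log2 scale (adjusted p = 0.00645 in edgeR). Without batch 16 it was 0.99 and missed the fold threshold. Ifit3 was lower in mTEChi, at 8.22, 3.08, 2.62, 2.61 and 28.8 CPM against 7.38, 42.8, 20.02, 27.9 and 33.8 CPM, on 4 of 5 batches. Its log2 fold change was -1.90 ± 0.65 (adjusted p = 0.0335 in edgeR), and the call was lost without batch 17 (adjusted p = 0.142), batch 18 (adjusted p = 0.102) or batch 19 (adjusted p = 0.134) in the same test.

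Usp18 (+0.68 ± 0.17, adjusted p = 0.00665), Isg15 (-0.80 ± 0.24, adjusted p = 0.0200) and Oasl2 (-0.57 ± 0.17, adjusted p = 0.0192) passed the adjusted p in edgeR but changed by less than 2-fold. Irf7, the member called between the adult sorts, was at -0.39 ± 0.20 (adjusted p = 0.142 in edgeR). Between newborn cTEC and newborn mTEClo none of the 8 genes was called, with Oasl2 nearest to the threshold (+0.49 ± 0.17, adjusted p = 0.107 in edgeR), where 3.66% of all genes were called in either direction.

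Newborn and adult cTEC were 1 pool each, and were compared by the ratio of their levels. Ifit3 was at 28.4 CPM in newborn and 59.2 CPM in adult cTEC, a ratio of 0.480 (exact interval 0.457 to 0.504, for counting error only). It was the 1 member past a 2-fold difference, as 14.9% of 11388 genes were. Ifit1 (0.539), Usp18 (0.554), Irf7 (0.572) and Mx1 (0.644) had ratios below 1, whereas Oasl2 (1.03), Isg15 (1.09) and Rsad2 (1.28) had ratios above it. In a fit of all 13 pools, added after the data were seen, in which both cTEC pools borrow the spread of the other groups, edgeR called none of 40148 genes (0%), with 3.22% at an unadjusted p below 0.05. DESeq2 called 0.742%, none of them a member. For Ifit3 the log2 difference in that edgeR fit was -1.03 ± 1.64 (adjusted p = 1.00). Cells high in thymocyte markers made up 13.0% of adult and 7.19% of newborn cTEC. With them left out, Ifit3 was at a ratio of 0.411 and Irf7, at 0.499, also passed the 2-fold difference.

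Other genes of the pathway were taken from lists and described in adult WT mTEChi against mTEClo, with the median of all genes at +0.30. Interferon ligands were read in few cells. Their shares were taken before thinning and are not matched for depth, with a median of 772240 reads per cell in adult WT mTEChi and 592899 in mTEClo. Ifnb1, encoding interferon beta, was read in 13 of 620 adult WT mTEChi cells (2.10%, exact interval 1.12 to 3.56%) and in 1 mTEClo cell with 1 read (0.280%). No Aire-KO mTEChi cell had a read of it, which allows a share of up to 0.888% (3 cells of the total), and 3 newborn mTEChi cells (1.75%) did. Any of 13 interferon alpha genes was read in 5.16% of adult WT mTEChi, 0.280% of mTEClo and 3.85% of Aire-KO mTEChi.

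The lambda genes Ifnl2 and Ifnl3 were read in 88 of 620 adult WT mTEChi cells (14.2%), 1 mTEClo cell (0.280%), 12.1% of Aire-KO mTEChi and 11.1% of newborn mTEChi. Ifng was read in 11 adult WT mTEChi cells (1.77%), in 5 Aire-KO mTEChi cells (1.48%) and in no mTEClo cell, which allows a share of up to 0.840% by the same rule. Ifnk, an interferon of skin keratinocytes, was read in 93 of 620 mTEChi cells and 15.1% of mTEClo. Of 15 ligand genes tested, Ifnb1 was called higher in mTEChi, and the count fell to 0 without the 4-week female mTEChi pool or without any 1 of the 3 mTEClo pools, and was 3 of 12 without the 5-week male mTEChi pool. DESeq2 called 9 of the 15 higher, where 17.9% of all genes were, and edgeR over batches 7 of 11, where 25.8% were. Adult WT mTEChi cells with an Ifnl2 or Ifnl3 read held a median of 230.5 thinned reads of the 8 members, against 120.5 in the other cells of the group. Those with an interferon alpha read held 163.5 against 130, whereas in Aire-KO and newborn mTEChi such cells held medians of 82 and 50, below the other cells of their groups.

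Of 12 genes for receptors and signalling (median -0.71), 3 were called lower in mTEChi and none higher. Ifnlr1, the receptor chain specific to interferon lambda, had a log2 fold change of -2.72 ± 0.49, with 3.26 to 5.46 CPM in mTEChi and 15.1 to 43.02 CPM in mTEClo. Stat2 (-1.69 ± 0.29) and Irf9 (-1.42 ± 0.24), which act together at the response element, were lower too. None of the 3 was called without cells with immune markers or with age as a block, and the median was -0.42 without the mTEClo pool labelled 8-week male. Of 7 other interferon regulatory factors (median +0.03), Irf4 (+3.53 ± 0.38), Irf5 (+2.79 ± 0.40) and Irf8 (+2.08 ± 0.23) were called higher, opposite to Irf7, and none of the 3 was called without cells with immune markers. Irf4 is known from activated lymphocytes and Irf8 from dendritic cells, and Irf4 stood at 297.98 to 353.97 CPM in mTEChi and 14.4 to 35.6 CPM in mTEClo.

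Among 15 nucleic acid sensors and adaptors (median -0.31), 4 were called higher and 3 lower. Tlr9, a sensor of DNA in endosomes, was higher by +4.60 ± 0.31, and Tlr7 was at 0 to 2.66 CPM in mTEChi and at most 0.0213 CPM in mTEClo. Ddx58 (RIG-I), a sensor of RNA in the cytosol, was at -2.70 ± 0.36 and Tlr3, a sensor of double-stranded RNA, at -2.04 ± 0.42, both lower. Leaving out 1 pool gave 2 or 3 higher and 2 or 3 lower calls, with 2 higher without the 4-week male, 6-week male or 4-week female mTEChi pool or the 8-week or 5-week mTEClo pool. Without cells with tuft markers 1 was higher and 1 lower, and without cells with immune markers 0 and 1. Among 9 inhibitors of signalling (median -0.13), Rnaseh2b (+1.41 ± 0.19) and Socs1 (+1.13 ± 0.24) were called higher and Ptpn6 (-1.93 ± 0.53) lower, the last with overlapping pools. The lower call was lost with RLE scaling, with no filter and with each pool left out but the mTEClo pool labelled 8-week male. It was also lost without cells with tuft markers and without cells high in tuft markers. The same held without cells with immune markers, without cells high in thymocyte markers and with the 7 pools alone. The 2 higher calls became 1 without the 4-week male or 4-week female mTEChi pool or the 4-week mTEClo pool. They also became 1 in thinned cells and without cells with tuft markers, and 0 without cells with immune markers or with age as a block.

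The list of 46 other type I interferon targets had a median log2 fold change of -0.80. Of these, 14 were called lower and 2 higher in mTEChi, and 36 had estimates below 0. Oas2, an oligoadenylate synthetase, was at -4.17 ± 0.94, Slfn8 at -3.30 ± 0.73 and Rtp4 at -3.15 ± 0.44, all lower, whereas Ifi205 was higher by +4.47 ± 0.41. Rtp4 stood at 10.5 to 24.2 CPM in mTEChi and 89.9 to 220.9 CPM in mTEClo. The count of 14 fell to 7 without the 4-week male, 8 without the 6-week male and 6 without the 4-week female mTEChi pool. It fell to 8 without the mTEClo pool labelled 8-week male, where the median was -0.31, to 2 without cells with immune markers and to 0 with age as a block.

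Of 27 targets of interferon gamma (median +0.15), 9 were called higher and 2 lower. Without the mTEClo pool labelled 8-week male the median was +0.60, with 9 called higher and 1 lower. Gbp4, a guanylate-binding protein, was higher by +3.56 ± 0.24, and the chemokines Cxcl11 and Cxcl10 by +2.82 ± 0.54 and +2.54 ± 0.60. Ido1, which degrades tryptophan, stood at 7.69 to 33.04 CPM in mTEChi and at most 0.200 CPM in mTEClo. The 9 higher calls fell to 4 without the 4-week male or the 4-week female mTEChi pool, to 3 or 6 without the 5-week or the 4-week male mTEClo pool, to 5 with age as a block and to 0 without cells with immune markers. In Aire-KO against WT mTEChi, 40 of the 46 other type I interferon targets had estimates below 0, and none was called by edgeR. Their median was -0.72, beside -0.16 over all genes. In newborn against adult WT mTEClo, 37 of the 46 were below 0 with a median of -0.66, beside -0.00472 over all genes. In newborn against adult WT mTEChi 26 were, with a median of -0.11 beside -0.05. In Aire-KO against WT mTEClo the medians were +0.16 for these targets and +0.37 for the 8 members, beside 0 over all genes.

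**Figure D5:**
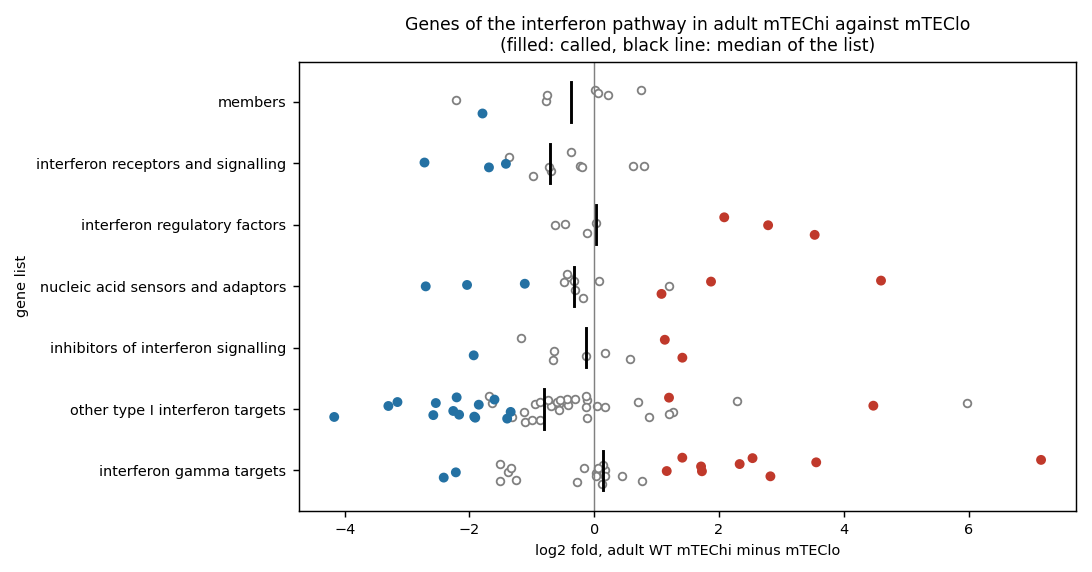
Log2 fold change (x axis) of adult WT mTEChi minus mTEClo for genes of each list (y axis), with 1 point per gene, filled where called, and a black line at the median of the genes drawn. Ligands and genes with 3 or fewer reads in either group are not drawn; 36 of the 46 other type I interferon targets lie below 0, and Irf4, Irf5 and Irf8 lie above 2.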

How the data were processed

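RamDA-seq was carried out on 1980 sorted cells, 168 of them in 2 sequencing runs whose combination was not stated. Adult WT mTEChi pools held 444, 12, 82 and 82 cells, adult WT mTEClo pools 217, 74 and 66, Aire-KO mTEChi 338, Aire-KO mTEClo 154, adult cTEC 77, and newborn mTEChi, mTEClo and cTEC 171, 124 and 139. The authors deposited whole-number read counts per Ensembl gene and cell: reads were trimmed with fastp 0.20.0, mapped to mm10 (GRCm38) with STAR 2.7.3a, filtered with SAMtools 1.9, deduplicated with Picard 2.21.1 and counted with HTSeq 0.11.2 without strand, per the paper's methods and the submitters' processing notes. Deposited counts were used for every value, and a second table of length-corrected values was not used. Symbols, coordinates and exon lengths came from GENCODE M21 (GRCm38).

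Counts were summed per pool and tested with the edgeR 4.0.16 quasi-likelihood test (R 4.3.3, TMM scaling, filterByExpr, 2-sided, Benjamini-Hochberg adjustment) over the 11 mTEC pools of 6 groups in 1 fit, with 5 residual degrees of freedom. Groups of 1 pool borrowed the spread of the others. The newborn sorts were fitted over 15 sums per sort and batch with batch as a block (8 residual degrees of freedom), and same-batch sums deviated together in most pairs (correlation -0.122 to 0.228, median 0.10). SE is the log2 fold change divided by the square root of F. Scripts were tested on simulated data. Alternatives were DESeq2 1.42.0, RLE scaling, no filter, no fold floor, thinned cells, cells left out by markers, batches as units, all 13 pools and each pool left out. Cells were thinned with numpy 2.4.6, and intervals at 95% were exact (scipy 1.17.1). Depth ranged from 203010 to 1823784 reads per cell.

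Named genes were the 8 members, up to 4 called genes per list with the largest fold, the 10 genes most like the members, and Aire. Motifs and ligand-positive cells were added later, and the ligands other than Ifnb1 were named after their values were seen. Members and lists were chosen with earlier results of these data known.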

Additional observations from a re-analysis of the deposited data

Results flagged for a closer look

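Levels of each gene were compared over batches within each group of 4 to 10 batches, and over the 4 adult WT mTEChi pools, and a highest or lowest value was singled out when its gap to the nearest other was large for the range of the group (Dixon's criterion at 95%). Of 56 sets tested, 4 were singled out, where chance gives about 1 in 20.

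In newborn mTEChi, batch 20 (32 cells) stood apart for both Isg15, at 31.6 CPM against 15.9 to 17.1 CPM on the other 4 batches, and Ifit3, at 28.8 CPM against 2.61 to 8.22 CPM. In newborn mTEClo, batch 16 had 17.7 CPM of Isg15 against 37.3 to 44.2 CPM, and held 11 cells. In adult WT mTEClo, batch 5, which is the whole 5-week male pool, had 68.3 CPM of Rsad2 against 26.4 to 38.4 CPM on the other 4 batches; 54.1% of its cells were high in tuft markers.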

How the results depend on the processing

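The call of Irf7 in adult mTEChi against mTEClo was kept with DESeq2, RLE scaling, no filter, thinned cells, all 13 pools, the 7 pools alone and each pool left out. The count of 1 member called became 3 over batches (Irf7, Isg15 and Ifit3, where 9.21% of genes were called lower) and 0 without cells with immune markers, which made up 87.4% of adult WT mTEChi, so that few cells remained. With age as a replicate block it was also 0, and Irf7 was at -1.43 (adjusted p = 0.0702 in edgeR). That fit held only the 4-week and 5-week male pools of both sorts. Age labels do not pair mice, and same-age pools deviated with a correlation of -0.05, so this block is only a number shared by pools.

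For Aire-KO against WT mTEChi the count of 0 became 1 with DESeq2 (Rsad2) and 3 over batches. For newborn against adult mTEClo it became 1 over batches, for the difference of the Aire-KO effect 1 with DESeq2 and 1 over batches, and for the difference of the newborn effect 1 over batches (Irf7, with 5.33% of genes either way). For newborn mTEChi against mTEClo the 2 members became 5 without the fold floor (49.05% of genes), 0 without cells with immune markers, 1 with no replicate block (adjusted p of Ifit3 0.0760 in edgeR) and 1 to 2 with each batch left out, with Isg15 (-1.002) called in place of Mx1 without batch 16. For cTEC the 1 member became 2 in thinned cells, 0 without cells with immune markers 2 without cells high in thymocyte markers and 0 in the edgeR test over 13 pools.

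Log2 fold changes that turned sign were mostly those without cells with immune markers: in adult mTEChi against mTEClo Mx1 (-0.24), Rsad2 (-3.42) and Usp18 (-0.16); in Aire-KO against WT mTEChi Isg15 (0.080), Ifit1 (-0.13), Ifit3 (2.15) and Rsad2 (0.62); in newborn against adult mTEChi Ifit1 (0.59), Ifit3 (4.43), Rsad2 (3.51) and Usp18 (0.36); in the difference of the Aire-KO effect Ifit3 (1.97) and Rsad2 (0.34); in the difference of the newborn effect Isg15 (1.52) and Rsad2 (3.19); and in newborn mTEChi against mTEClo Irf7 (0.36), Isg15 (0.34) and Ifit3 (0.45). Without tuft-marker cells Mx1 turned to -0.36 between adult sorts and -0.53 for Aire-KO mTEClo, and without cells high in tuft markers Rsad2 turned to 0.83 in newborn against adult mTEClo. Rsad2 turned to -0.43 between adult sorts with age as a replicate block. Without the mTEClo pool labelled 8-week male, Ifit1 and Oasl2 turned in newborn against adult mTEClo, where leaving out 1 pool in turn gave -0.80 to 0.21 for Ifit1 and -0.55 to 0.33 for Oasl2. The cause was not tested in any of these. The 5-week male mTEChi pool held 12 cells, which limits its values.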
